A study of Mus musculus with 8 samples.

Results

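The genes of MHC class II presentation were followed through the first cell cycle of activated B cells by the contacts of the chromatin in which they start. The set holds 10 of the 21938 protein-coding genes placed in the maps. These are the antigen-presenting chains H2-Aa, H2-Ab1 and H2-Eb1, the peptide-loading chains H2-DMa, H2-DMb1, H2-DMb2, H2-Oa and H2-Ob, the regulator Ciita and the invariant chain Cd74. They were chosen by name, with earlier results of these data known, and their transcription starts fall in 8 of the 13301 bins of 50 kb kept that contain such a start. For each start bin, contacts with the bins up to 1 Mb on either side were examined.

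The measurement was in situ Hi-C. Fixed chromatin is cut with an enzyme and rejoined, and each sequenced read pair reports that its ends lay near each other in a nucleus. All 8 libraries came from splenic B cells of mice labelled C57BL/6, which the study's methods give as male and on a C57BL/6 Pep3b background, that were isolated by negative selection, labelled with the division dye CTV and cultured with 25 µg/ml lipopolysaccharide (LPS), a bacterial product that activates B cells, with 2 biological replicates in each of 4 groups. The cells of 3 h, of 10 h and of 33 h before their first division (imminent division) were sorted as activated (CD69+) undivided cells of highest CTV, without T cells. Those of 33 h pre-S came from C57BL/6 FUCCI mice, which carry fluorescent reporters of cell cycle phase, and were sorted as mAG- mKO2hi, so that reporter strain and gate differ together with this group. Hi-C holds no RNA, so the labelled cell type could not be checked against markers, and nothing here measures expression.

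MHC class II molecules display peptides from taken-up antigen to helper T cells, and resting B cells are among the few cell types that carry them without induction. In the mouse, H2-Aa and H2-Ab1 encode the α and β chains of I-A. H2-Eb1 encodes the β chain of I-E, whose α chain is not made in C57BL/6 mice. The invariant chain CD74 occupies the groove of a new class II molecule, the H2-DM chains exchange its remnant for peptide, and the H2-DO chains (H2-Oa, H2-Ob) restrain H2-DM. CIITA is the co-activator on which transcription of these genes depends. It binds no DNA itself but is held by the factors RFX, CREB and NF-Y on the X and Y boxes that lie just before the genes.

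The X and Y boxes are the sequence on which CIITA is held, and are shown because neither was used to choose the genes or measured in the maps. Capitals in the 5′ to 3′ sequences mark AACNNATGATGC, a form of the X box, and ATTGG, the core of the Y box. The former is the longest word, with 2 adjacent free letters, that 4 of these genes share just before their ATTGG.
H2-Ob, plus strand, GRCm38.p6 chr17:34238796-34238855: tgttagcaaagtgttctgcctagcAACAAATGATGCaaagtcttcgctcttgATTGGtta
H2-Eb1, plus strand, GRCm38.p6 chr17:34305756-34305815: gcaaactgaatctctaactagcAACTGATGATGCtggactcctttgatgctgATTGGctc
H2-Aa, minus strand, GRCm38.p6 chr17:34287864-34287923: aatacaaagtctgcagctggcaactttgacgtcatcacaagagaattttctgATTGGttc
The stretch between the capitals is 16 bases in H2-Ob and 18 in H2-Eb1, whereas H2-Aa holds the ATTGG but not that exact longer word. The longer word is only a form of the X box, so its absence does not show that H2-Aa lacks an X box. RefSeq promoters, 300 bases each with 250 before the start, were at hand for 7 of the 10 genes in 8 windows. ATTGG was found on either strand in 7 of these 8 windows and in 37.4% of all 32851 promoters. AACNNATGATGC was found in 4 of the 8, those of H2-DMb1, H2-DMb2, H2-Ob and H2-Eb1, and in 13 promoters of all (0.0396%). As the motif was read from these very genes, its share among them is a description and no test. The letters do not overlap, and a match is not a bound site.

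On the map the 8 chromosome 17 members fill 6 bins in a row (GRCm38 chr17:34050269-34350160). H2-Oa (34092340 to 34095234, plus strand) starts in the bin nearest the centromere. H2-DMa (34119541 to 34139101) and H2-DMb2 (34143307 to 34151555) share the next bin with Brd2. H2-DMb1 (34153072 to 34160230) starts beside Tap1, Psmb9 and Psmb8, and H2-Ob (34238903 to 34254414) beside Tap2, all of which serve class I presentation. H2-Ab1 (34257689 to 34269419) and H2-Aa (34282744 to 34287823, minus strand) start in 1 bin, so no value separates these chains. H2-Eb1 (34305867 to 34316674) shares the last bin with H2-Eb2. On the centromere side lies the class I K part (3 bins with Tapbp and H2-K1). On the other side, past 4 bins with butyrophilin-like genes, lie class III (14 bins, Notch4 to Nfkbil1) and the class I D part (5 bins, H2-D1 to H2-Q10). Ciita lies apart on chromosome 16 (10480059 to 10528418, plus strand), and Cd74 on chromosome 18 (60803848 to 60812652, plus strand) in a bin with Tcof1.

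The libraries held 88703088 to 218945191 read pairs each, and 70.9% to 75.1% of autosomal pairs were in cis. The second imminent division library stood apart on the sex chromosomes, with 3.74% of read ends on X and 0.0490% on Y against 2.39% to 2.84% and 0.0804% to 0.123% in the other 7, which goes against the male sex that the methods give for all mice. All results below are from autosomes, and counts without that library are given beside the results that it moved. The p-values set differences between groups against the spread between libraries. In the edgeR tests that spread was estimated with information shared across bin pairs, bins or regions. Counts per bin pair are sums over many cells.

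The first comparison asks whether contacts of the class II genes had changed by 10 h of culture. They showed no differential interaction (DI) between 3 h and 10 h. Of 305 bin pairs with a member start bin and at most 1 Mb apart, 254 passed the filter on low counts, and edgeR called 0 of them stronger or weaker at 10 h at a false discovery rate (FDR) of 5%. An unadjusted p under 0.05 was seen in 9 pairs, and DESeq2 called 0. Among all 836094 tested pairs of that span, 0.000837% were stronger and 0.00012% weaker. The smallest p among class II pairs belonged to the bin of H2-Ab1 and H2-Aa with that of Myo1f, 700 kb away, at 0 and 3.66 normalised read pairs at 3 h against 11.5 and 10.5 at 10 h (FDR 0.617). A normalised read pair is a count scaled by the library's offsets, so that libraries can be set side by side.

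At imminent division the contacts of the class II genes were weaker than at 10 h, and no pair was stronger. Of the 254 pairs 34 were weaker (13.4%) and 0 stronger, with a median log2 change of −0.43 and 217 pairs below 0. Among all tested pairs of at most 1 Mb 1.65% were weaker and 0.942% stronger, and among those with both bins in compartment A, the active part of the genome in which every member lies, 3.89% were weaker. These shares come from all libraries. Over tested pairs of any span, the weaker count also fell without either 10 h or either imminent division library. The chromosome 17 members held 33 of the 34 pairs, out of 201 tested, with a median of −0.49. Ciita held 1 of 28 (median −0.22) and Cd74 0 of 25 (median −0.28, 7 pairs at an unadjusted p under 0.05). Leaving out 1 library gave 10 to 38 weaker pairs, with 22 and 10 when the first or the second 10 h library was dropped and 22 for either imminent division library.

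At pre-S, before the DNA is copied, the same comparison with 10 h again found weaker pairs alone. There were 20 weaker pairs (7.87%) and 0 stronger, with a median of −0.39 and 230 pairs below 0, against 0.358% weaker and 0.558% stronger among all pairs of that span and 0.781% weaker among pairs within compartment A. Of the 20, 17 were on chromosome 17 (median −0.41), 2 belonged to Ciita and 1 to Cd74. Both comparisons use the same 10 h libraries, so the counts are not independent of each other. Over tested pairs of any span, the weaker count at pre-S fell without either 10 h or either pre-S library. Leaving out 1 library gave 5 to 22 pairs, with 5 or 7 when a pre-S library (first or second) was left out and 7 or 6 when a 10 h library (first or second) was. Set against each other, the groups at 33 h had no DI at the members. Of the 254 pairs 0 were called (32 at an unadjusted p under 0.05, DESeq2 0), while 0.192% of all pairs of that span were stronger and 0.325% weaker at imminent division. Over tested pairs of any span, both the stronger and the weaker count fell without the second imminent division library and without either pre-S library. Both also fell, though less, without either 10 h library.

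**Figure D1:**
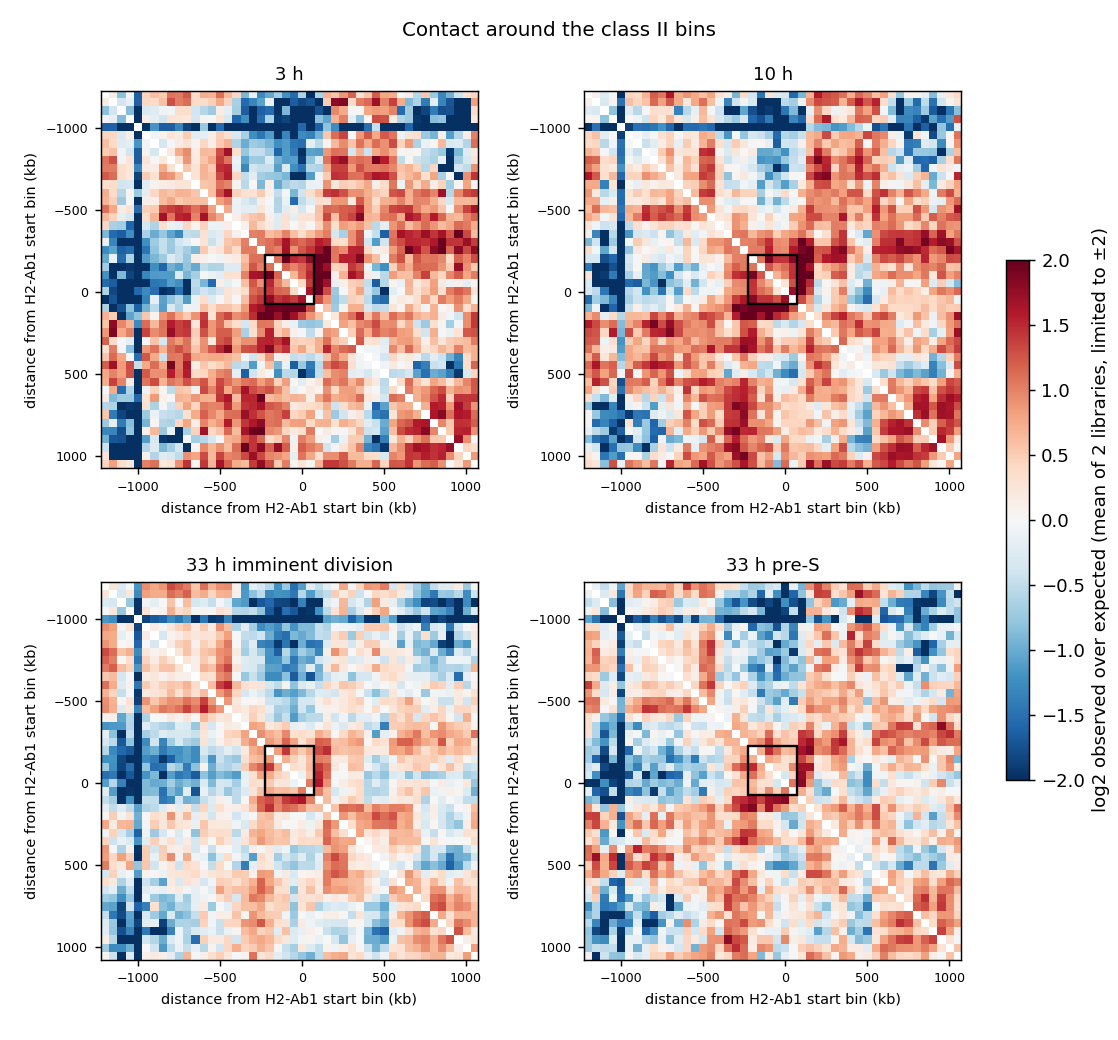
Contact around the class II bins at 50 kb in each group, as log2 of observed over expected contact (mean of 2 libraries, limited to ±2). Both axes give the distance in kb from the bin of H2-Ab1, the black square bounds the 6 class II bins and any bin pair with no value is left blank. The square and the strip beside it are redder at 3 h and 10 h than in both groups at 33 h.

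Within the class II cluster itself the loss involved most bin pairs. All 15 pairs among the 6 bins were tested, of which 11 were weaker at imminent division and 8 at pre-S, and all 15 log2 changes were below 0 in both comparisons. Among all pairs within 1 Mb with both bins in A, 3.89% were weaker at imminent division and 0.781% at pre-S. That background covers every span up to 1 Mb, whereas these 15 pairs lie 50 to 250 kb apart. The block as a whole is described further below. Values are given first for the antigen-presenting chains.

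The bin of H2-Ab1 and H2-Aa, the I-A chains, with that of H2-Eb1, 50 kb on, held 546 and 558 normalised read pairs at 3 h and 586 and 607 at 10 h. It held 452 and 412 with division imminent and 408 and 439 in pre-S cells. The early and late libraries did not overlap. The fall from 10 h was 0.47 on the log2 scale at imminent division (SE 0.076, FDR 9.41e-06) and 0.50 at pre-S (SE 0.084, FDR 2.69e-05). Without the first pre-S library the latter was no longer called (log2 change −0.43, FDR 0.0812).

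The H2-DO chains lie on either side of the H2-DM genes. Between H2-Oa, the α chain, and H2-Eb1, 250 kb apart, there were 157 and 108 normalised read pairs at 3 h and 153 and 120 at 10 h, and then 72.9 and 76.6 with division imminent and 71.2 and 58.2 in pre-S cells. Every library at 33 h was thus below every earlier library. This contact fell by 0.85 at imminent division (FDR 3.45e-05) and by 1.05 at pre-S (SE 0.173, FDR 1.85e-05) on the log2 scale. H2-Oa with the I-A bin, 200 kb on, went from 129 and 128 at 10 h to 76.4 and 76.0 and to 80.5 and 69.2 (FDR 0.000356 and 0.00554; where values or FDRs follow a 10 h value in this way, imminent division comes first and pre-S next). H2-Ob, the β chain, with H2-Eb1 100 kb on stood at 254 and 200 at 3 h, 211 and 215 at 10 h, then 145 and 145 with division imminent and 132 and 115 in pre-S cells. It fell by 0.56 (FDR 0.00087) and 0.78 (SE 0.132, FDR 4.33e-05) on the log2 scale.

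For the peptide exchanger H2-DM, the bin of H2-DMa and H2-DMb2 lost contact with both bins of the antigen-presenting chains. With the I-A bin it held 146 and 124 normalised read pairs at 10 h, then 79.0 and 80.5 with division imminent and 78.3 and 76.3 in pre-S cells (FDR 0.000269 and 0.00281). With H2-Eb1 it held 123 and 138 at 10 h, then 76.4 and 84.7 with division imminent and 67.7 and 62.3 in pre-S cells (FDR 0.000873 and 4.58e-05). In each case the 33 h libraries were below the 10 h libraries without overlap. H2-DMb1 with the I-A bin went from 177 and 172 at 10 h to 121 and 108 and to 107 and 117 (FDR 0.000812 and 0.00697).

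The pairs that were called in neither comparison lay among the H2-DM and H2-DO genes. H2-Oa with the bin of H2-DMa and H2-DMb2, its neighbour, held 376 and 399 normalised read pairs at 10 h, then 364 and 359 with division imminent and 298 and 358 in pre-S cells (FDR 0.594 and 0.226). The other three were H2-Oa with H2-DMb1 (FDR 0.293 and 0.15), H2-DMa and H2-DMb2 with H2-Ob (0.101 and 0.437) and H2-DMb1 with H2-Ob (0.0504 and 0.259). Of the remaining pairs among the H2-DM and H2-DO genes, H2-Oa with H2-Ob was weaker at imminent division (log2 change −0.49, FDR 0.0112). So was the bin of H2-DMa and H2-DMb2 with H2-DMb1 (log2 change −0.40, FDR 0.00166). Neither pair was called at pre-S (FDR 0.378 and 0.0544). All 9 pairs of the I-A or H2-Eb1 bin within the cluster were weaker at imminent division, and 8 of the 9 at pre-S. Whether the pairs among the H2-DM and H2-DO genes changed less than these 9 was not tested.

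**Figure D2:**
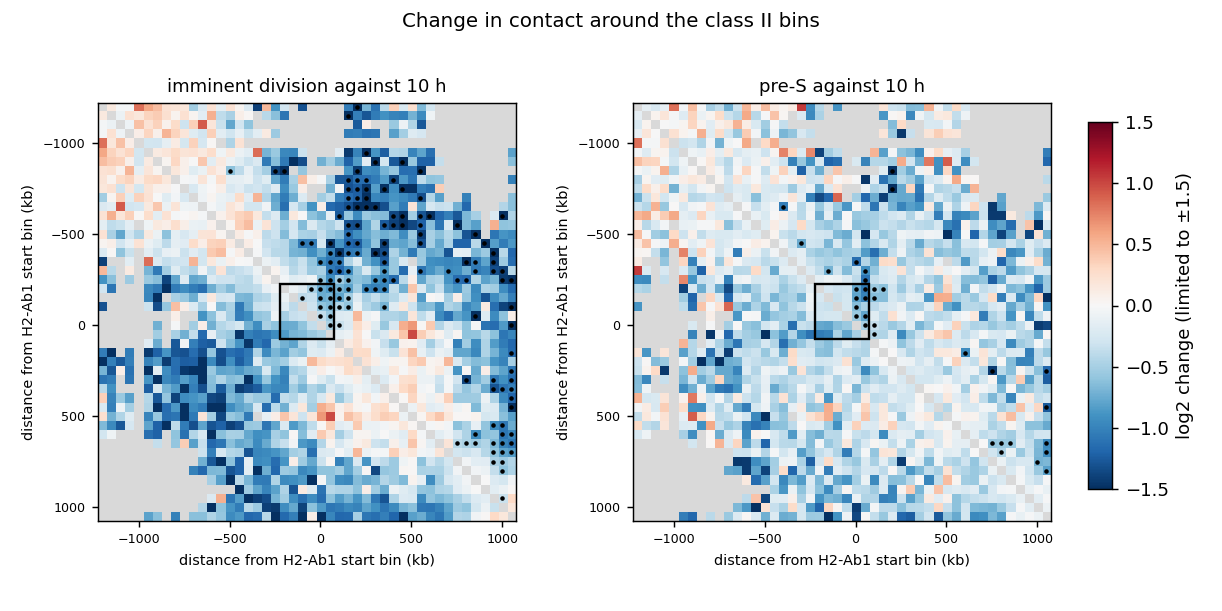
Log2 change of each 50 kb bin pair around the class II bins (limited to ±1.5), for imminent division against 10 h and pre-S against 10 h. Axes give the distance in kb from the bin of H2-Ab1, dots mark bin pairs called at an FDR of 5%, the black square bounds the class II bins and grey marks pairs not tested. The dots in and around the square all lie on weaker pairs (blue), 11 and 8 of them between class II bins.

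Around the cluster the weaker pairs were counted for each neighbouring part, beside a background of 3.89% weaker at imminent division and 0.781% at pre-S among pairs within 1 Mb with both bins in A. With the 4 bins between class II and class III 8 of 24 tested pairs were weaker at imminent division and 5 at pre-S, with the class I K part 5 and 4 of 18, with class III 4 and 0 of 78, with the bins centromeric of the K part 5 and 0 of 63, and with the D part 0 of the 3 that could be tested. For comparison 11 and 4 of 91 pairs within class III were weaker, and 14 and 0 of 41 pairs between the K part and class III, which skip over class II. The differences between these shares were not tested. Weaker pairs were therefore also found in parts of the MHC that hold no member.

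Among these, H2-Oa with a bin that holds no gene start, 350 kb away on the class III side, stood at 199 and 145 at 3 h, 156 and 163 at 10 h, then 82.5 and 99.0 with division imminent and 97.4 and 113 in pre-S cells. It fell by 0.81 (SE 0.132, FDR 1.28e-05) and by 0.61 (FDR 0.0178) on the log2 scale. The bin of H2-DMa and H2-DMb2 with that of Btnl2 and Btnl1, butyrophilin-like genes 250 kb away, went from 166 and 151 at 10 h to 85.5 and 96.2 and to 93.7 and 110 (log2 change −0.79, FDR 2.32e-05, and −0.64, FDR 0.0126). On the K side H2-Eb1 with the bin of Ring1 and Rxrb held 90.4 and 109 at 10 h, then 55.9 and 50.5 with division imminent and 47.9 and 45.5 in pre-S cells, without overlap. With the bin of the class I gene H2-K1 it held 78.1 and 70.8 at 10 h, then 38.6 and 32.9 with division imminent and 50.3 and 26.2 in pre-S cells (FDR 0.000148 and 0.0196).

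By start bin, H2-Eb1 had the most weaker pairs at imminent division (10 of 38) and shared the most with the I-A bin at pre-S (7 of 38 and 7 of 36). At imminent division there were 9 of 37 for H2-Oa, 8 of 36 for the I-A bin, 7 of 37 for H2-DMb1 and 5 each for H2-DMa with H2-DMb2 (of 35) and H2-Ob (of 33). The counts at pre-S were 4 for H2-Oa, 4 for H2-DMa with H2-DMb2, 1 for H2-DMb1 and 2 for H2-Ob. A pair between a pair of members counts for both. For comparison, 3.89% of pairs within 1 Mb with both bins in A were weaker at imminent division and 0.781% at pre-S. The only class II pair near the threshold between the groups at 33 h was H2-Eb1 with Btnl6, 200 kb away, at 40.9 and 50.5 normalised read pairs at imminent division against 23.1 and 24.4 at pre-S (log2 change 0.95, SE 0.254, FDR 0.0522). With TMM factors in place of the loess offsets its FDR was 0.0194.

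At the gene of the regulator CIITA 1 of 28 tested pairs was weaker at imminent division and 2 at pre-S, or 3.57% and 7.14%, and the first share is below the 3.89% and the second above the 0.781% of pairs within 1 Mb with both bins in A. With a bin 900 kb away that holds no gene start, Ciita had 39.97 and 42.0 normalised read pairs at 3 h, 35.9 and 34.9 at 10 h, then 14.4 and 16.7 with division imminent and 19.4 and 17.4 in pre-S cells. The fall at imminent division was 1.17 on the log2 scale (SE 0.273, FDR 0.00584), and at pre-S the pair was not called (FDR 0.156). The bin next to Ciita, where Dexi and Clec16a start, went from 430 and 437 at 10 h to 370 and 386 at imminent division (FDR 0.206) and 313 and 347 at pre-S (log2 change −0.40, SE 0.092, FDR 0.012). Ciita with Tekt5, 100 kb on the other side, went from 142 and 153 at 10 h to 136 and 117 (FDR 0.348) and to 106 and 94.8 (log2 change −0.56, SE 0.150, FDR 0.0438). These calls are fragile. Leaving out either 10 h library ended all 3 (FDR 0.0695 to 0.344), leaving out the first imminent division library ended the call of that group (FDR 0.0762), and leaving out either pre-S library ended both pre-S calls (FDR 0.0525 to 0.398). The Tekt5 call was also lost with DESeq2 (FDR 0.058) and with the filter at 2-fold background (FDR 0.154). With the interchromosomal coverage of each bin in the offsets both pre-S calls were lost (log2 change −0.11, FDR 0.785, and −0.25, FDR 0.594).

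Among pairs within 1 Mb with both bins in A, 0.781% were weaker at pre-S and 3.89% at imminent division. Cd74, the gene of the invariant chain, had 1 weaker pair of 25 tested at pre-S (4%) and 0 at imminent division. Its contact with the bin of Rps14, a ribosomal protein gene, and Ndst1, 100 kb away, held 122 and 138 normalised read pairs at 3 h, 143 and 149 at 10 h, then 110 and 119 with division imminent and 98.4 and 86.3 in pre-S cells. The fall at pre-S was 0.65 on the log2 scale (SE 0.154, FDR 0.0132) and was lost without either 10 h or either pre-S library (FDR 0.0822 to 0.216) and with bin coverage in the offsets (FDR 0.148). At imminent division the values were also below those of 10 h, but the pair was not called (FDR 0.134). The pair with the smallest p there, Cd74 with Pcyox1l and Grpel2 900 kb away, rested on few counts (18.8 and 18.03 at 10 h, 9.99 and 5.98 at imminent division, FDR 0.0627).

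Promoter interactivity, the cis reads of a start bin summed over its stronger contacts at any distance, was taken as log2 CPM, its count relative to the library's sum. No member differed between 3 h and 10 h (0 of 8 by edgeR and by DESeq2, 0 at an unadjusted p under 0.05, background 0.0927% higher and 0 lower of 12939 bins). At imminent division all 8 start bins were lower than at 10 h, against a background of 25.3% lower and 24.7% higher. At pre-S 7 of 8 were lower, all but that of Cd74, against 17.1% lower and 18.1% higher. The median change over the members was −0.28 and −0.27 on the log2 scale, while that of all tested bins was −0.00088 and −0.0019. The offsets were fitted to all tested bins, so the latter median is held near 0 by the scaling. The 6 class II bins lie in a row, and a contact between any pair of them enters both sums. The 8 start bins are therefore not independent of each other.

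**Figure D3:**
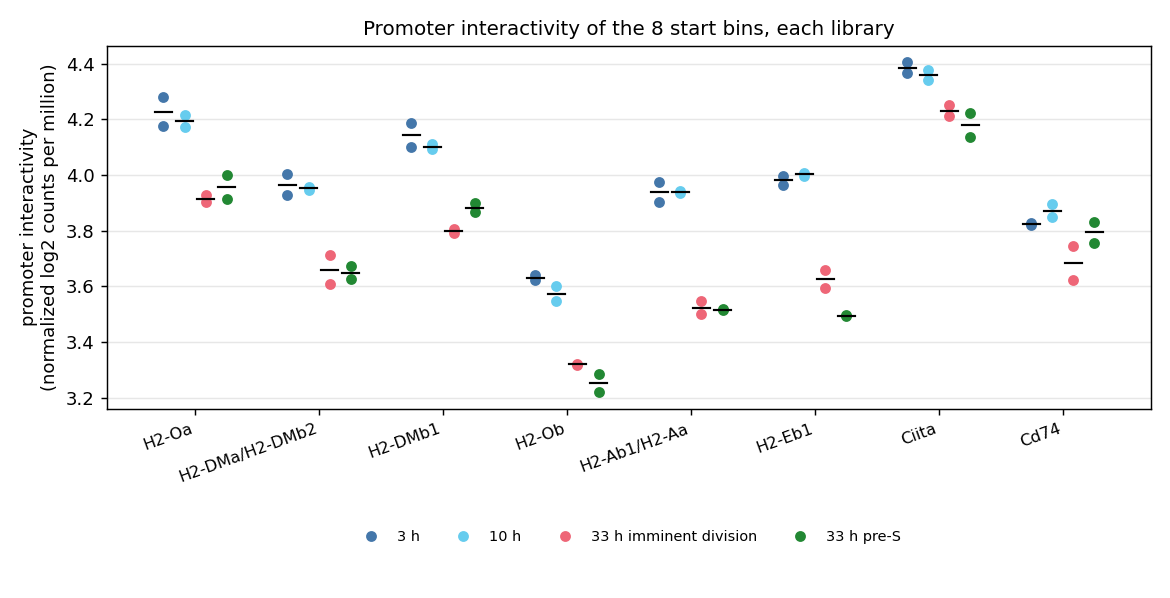
Promoter interactivity of the 8 member start bins in each library, in log2 CPM, with points for libraries, bars for group means and colours for the 4 groups. At all 6 class II bins the libraries of 33 h lie below those of 3 h and 10 h, and at Ciita and Cd74 the groups lie closer together.

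The antigen-presenting chains are given first. The bin of H2-Ab1 and H2-Aa had 3.98 and 3.904 log2 CPM at 3 h, 3.93 and 3.94 at 10 h, then 3.55 and 3.50 with division imminent and 3.52 and 3.52 in pre-S cells. It fell by 0.42 in both comparisons (FDR 2.21e-09 and 5.44e-08). H2-Eb1 had 3.96 and 3.998 at 3 h, 4.01 and 3.996 at 10 h, then 3.66 and 3.59 with division imminent and 3.49 and 3.50 in pre-S cells, a fall of 0.38 (FDR 7.86e-09) and 0.51 (FDR 3.78e-09). It was the only member called between the groups at 33 h, higher at imminent division by 0.13 (SE 0.042, FDR 0.0316, background 7.86% higher and 9.17% lower). This call was lost with DESeq2 (FDR 0.0605) and without the first imminent division library (log2 change 0.096, FDR 0.18) or either pre-S library (FDR 0.16 and 0.139).

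The bins of the peptide-loading genes fell too, and whether their change differs from that of the chains above was not tested. At imminent division and pre-S the fall was 0.29 and 0.30 for H2-DMa with H2-DMb2 (FDR 1.08e-06 and 1.22e-05), 0.30 and 0.22 for H2-DMb1 (FDR 1.71e-07 and 0.000164), 0.28 and 0.24 for H2-Oa (FDR 1.14e-06 and 0.000122) and 0.25 and 0.32 for H2-Ob (FDR 7.82e-06 and 7.89e-06). Ciita had 4.38 and 4.34 log2 CPM at 10 h, then 4.21 and 4.25 with division imminent and 4.14 and 4.22 in pre-S cells. Its fall of 0.12 and 0.18 was called (FDR 0.00459 and 0.000891) but not without the first 10 h (FDR 0.0652) and the first pre-S library (FDR 0.0714) respectively. Cd74 had 3.85 and 3.896 at 10 h, then 3.75 and 3.62 with division imminent and 3.76 and 3.83 in pre-S cells (log2 change −0.19, FDR 0.000322, and −0.08, FDR 0.155). Without the second imminent division library, which stood apart on the sex chromosomes, the former was −0.13 (FDR 0.0276). With all cis pairs summed, Cd74 was called at pre-S too (log2 change −0.21, FDR 0.00285).

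Other genes of the pathway did not share a direction. The shares over all tested bins, to be read beside the counts that follow, were 24.7% higher and 25.3% lower at imminent division, with 18.1% higher and 17.1% lower at pre-S, and several of the counts are close to them. Of 9 regulators of class II transcription and B cell factors 1 bin was higher and 4 lower at imminent division. At pre-S 0 were higher and 3 lower. Creb1 rose by 0.13 (FDR 0.00657), whereas Irf8 fell by 0.25 (FDR 7.56e-06) and 0.22 (FDR 0.000329), the NF-Y subunit Nfya by 0.21 at imminent division (FDR 3.62e-05) and the RFX subunit Rfxank by 0.14 at pre-S (FDR 0.00376). Of 7 bins for antigen processing 2 were higher and 3 lower at imminent division. At pre-S 1 was higher and 2 lower. The protease genes Ctsl and Ctsd went opposite ways, Ctsl up by 0.10 and 0.16 (FDR 0.0233 and 0.00243) and Ctsd down by a log2 change of −0.26 and −0.14 (FDR 3.97e-06 and 0.00936). Cd83, which keeps class II on the surface by holding off the ubiquitin ligase March1, was the only bin of these lists called by 10 h. It held 4.32 and 4.31 log2 CPM at 3 h, 4.52 and 4.51 at 10 h, then 4.37 and 4.31 with division imminent and 4.24 and 4.25 in pre-S cells (log2 change 0.20, FDR 0.0106, then −0.18, FDR 7.04e-05, and −0.27, FDR 5.03e-06).

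Bins near the members were mostly lower or not called. Of 13 class III bins 11 were lower at imminent division and 7 at pre-S (median log2 change −0.15 and −0.12), led by the bin of Tnf and Lta at imminent division (−0.26, FDR 5.65e-06), and none was higher. Of 10 bins of class I presentation genes that hold no class II gene 4 were higher and 4 lower at imminent division. At pre-S 2 were higher and 3 lower. The lower ones included H2-K1 and H2-D1 inside the MHC (−0.20, FDR 8.58e-05, and −0.19, FDR 0.000126, at imminent division). The higher ones included Pdia3, which lies elsewhere in the genome (0.17, FDR 0.000358). Of 6 bins around Ciita 3 were lower in each comparison, and of 6 around Cd74 1 at imminent division and 0 at pre-S.

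Contacts were also summed by block and set against the mean count of bin pairs at the same distance in the same library. Contact within the class II block stood at log2 1.27 and 1.19 over expected at 3 h, 1.22 and 1.21 at 10 h, then 0.63 and 0.66 with division imminent and 0.62 and 0.69 in pre-S cells. Class II with the class I D part stood at 0.45 and 0.30, 0.34 and 0.37, −0.52 and −0.56, and −0.25 and −0.37 in that order, so that contact above expectation turned to contact below it. Of the 30 bin pairs of that block, 3 were tested within 1 Mb and 0 were called. Most of its pairs span more than 1 Mb, and it held 140 to 331 read pairs per library. In each of the 6 blocks every library at 33 h lay below every earlier library. The same held within class III and between the K part and class III, neither of which holds a member. Yet no block passed the exact permutation test over the 2520 assignments of libraries to groups after adjustment over the 6 blocks (on the F statistic, which counts differences in either direction, adjusted p 0.0857 in each, unadjusted p 0.0190 for Cd74, 0.0286 for class II with the D part, 0.0476 for Ciita, 0.0762 for class II with the K part and with class III and 0.0857 within class II). The smallest p this design allows is 0.00952. The F statistic weighs all 4 groups at once. Its p therefore also depends on how replicates lie among the early libraries and among those of 33 h. It does not test the difference between 10 h and 33 h by itself, and no conclusion on that difference is drawn from it. With bin coverage divided out 3 blocks passed (adjusted p 0.019), and without either 3 h library all 6 did (adjusted p 0.019 to 0.0476), whereas with any other library left out none did.

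**Figure D4:**
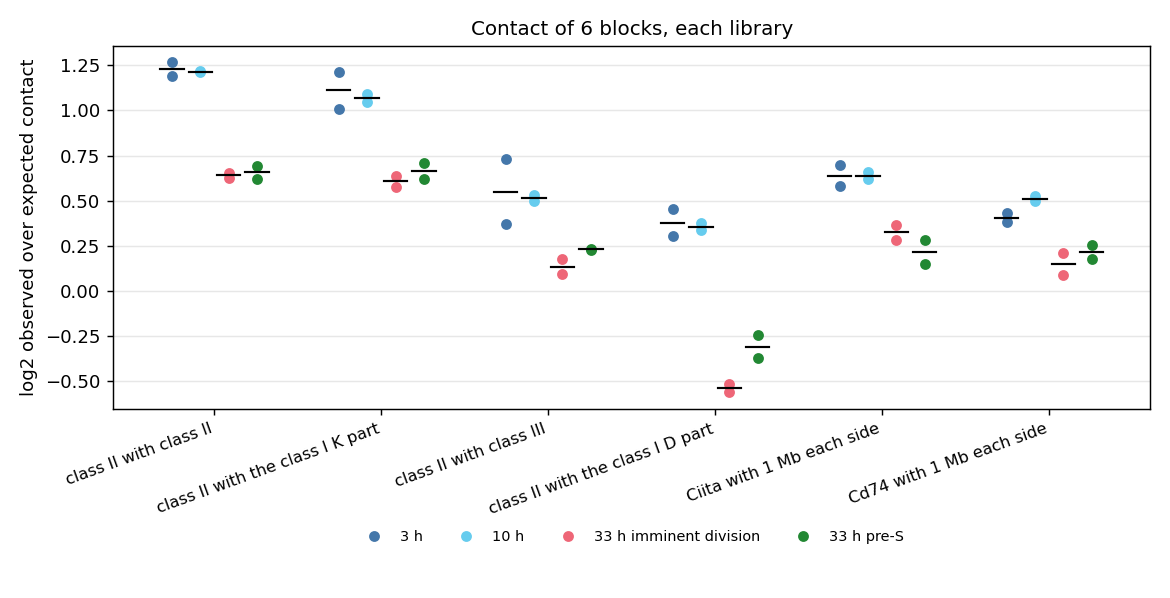
Log2 of observed over expected contact of the 6 blocks, a point for each library, bars for group means and colours for groups. Class II with class II lies at 1.19 to 1.27 in the 4 early libraries and at 0.62 to 0.69 in the 4 libraries of 33 h, and class II with the class I D part passes from above to below 0.

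The differences from 10 h to imminent division were −0.57 within class II, −0.46 with the K part, −0.38 with class III and −0.89 with the D part, on the log2 scale. For Ciita and for Cd74 with 1 Mb on each side they were −0.31 and −0.36. The Cd74 window stood at 0.53 and 0.50 at 10 h, then 0.21 and 0.09 with division imminent and 0.18 and 0.25 in pre-S cells. Side by side, contact within class III, which holds no member, stood at 0.77 and 0.70 at 10 h and 0.45 and 0.47 at imminent division, a difference of −0.28. Contact of the K part with class III, which also holds no member, stood at 1.24 and 1.295 at 10 h and 0.51 and 0.55 at imminent division. Its difference of −0.74 at imminent division is larger in size than those of class II with class II, the K part and class III, while at pre-S its difference of −0.35 is smaller than those within class II (−0.56) and of class II with the K part (−0.41). The differences between blocks were not tested.

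The class II bins lie inside a stretch of high local contact. The insulation score, the log2 contact across a bin within 500 kb on each side relative to the chromosome, ran from 0.60 to 1.203 over the 6 bins at 3 h and 10 h, from 0.06 to 0.52 at imminent division and from 0.33 to 0.75 at pre-S. At each of the 6 bins the groups kept the same order, with imminent division lowest, pre-S next and both early groups above. At Ciita the score was 0.35 to 0.59 in the early libraries, then −0.0044 and 0.11 with division imminent and 0.23 and 0.25 in pre-S cells. At Cd74 it was 0.89 to 1.08, then 0.23 and 0.40, then 0.55 and 0.62. These scores are a description, with no test.

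**Figure D5:**
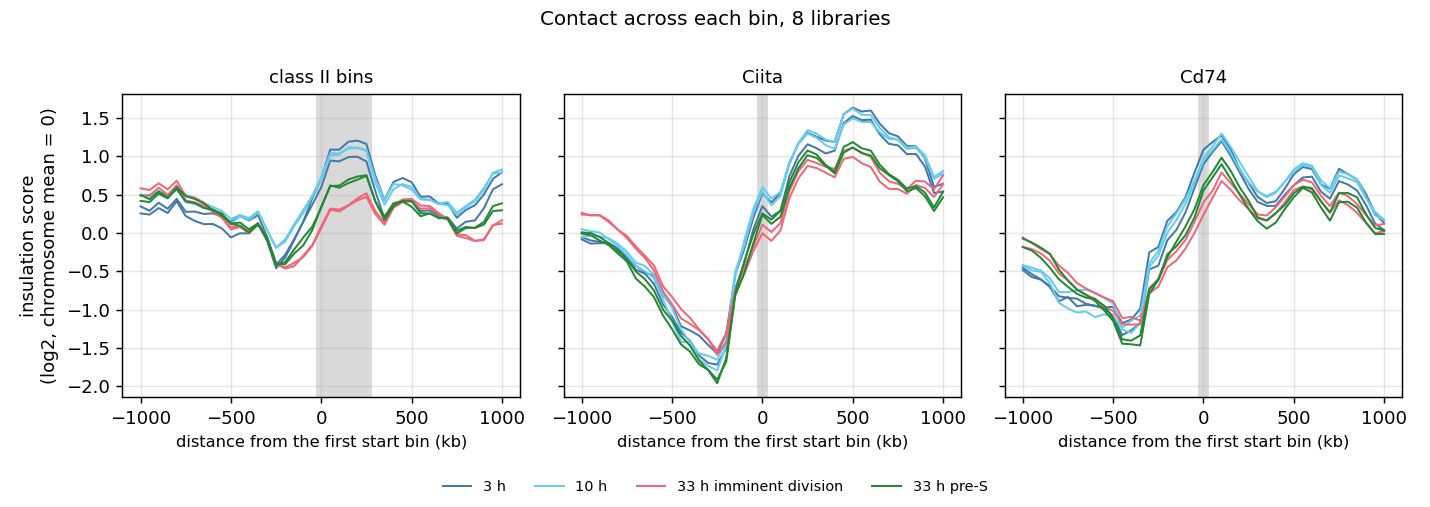
Insulation score (log2, chromosome mean at 0) against distance in kb from the first start bin, with a line for each library, for the class II bins, Ciita and Cd74. Grey bands mark the member bins, over which the lines of 3 h and 10 h lie highest and those of imminent division lowest.

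A boundary test compared the contacts of each 100 kb region with the 1 Mb before and after it. Of 63 regions in the member windows, 0 were called between 3 h and 10 h (background 0.194% stronger and 0.138% weaker; without a fold threshold 3 were called). At imminent division 8 were stronger and 13 weaker (background 4.59% and 13.1%), at pre-S 1 and 2 (background 2.02% and 2.86%), and between the groups at 33 h 0 were stronger and 9 weaker at imminent division (background 0.599% and 4.85%). The count of 9 went to 4 without the first imminent division library and to 5 without the second pre-S library, and the pre-S count of 3 went to 1 without the first 10 h library. The region of H2-Ab1, H2-Aa and H2-Eb1 was the only region with a member that was called. Its log2 ratio of upstream to downstream contact was 0.07 and −0.02 at 3 h, −0.02 and 0.01 at 10 h, then −0.35 and −0.45 with division imminent and −0.19 and −0.36 in pre-S cells, so a balanced region came to lean downstream (FDR 1.59e-06 at imminent division, 0.0759 at pre-S). The next region, of Btnl2 and Btnl1, had 0.93 and 0.87 at 10 h and 0.38 and 0.40 at imminent division (FDR 6.81e-13), a weaker lean towards the class II side. The regions of Ciita (FDR 0.822) and Cd74 (FDR 0.932) were not called at imminent division.

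None of the members changed compartment. Their 5 bins of 100 kb all had a positive first component, between 1.00 and 1.43 in the 8 libraries, and lay at the 78.8th to 96.3rd percentile of their chromosomes, whereas 46.9% of 23541 bins were in A. By limma 0 of 5 were called in any of the 4 contrasts. The smallest FDR was that of Ciita, at 1.32 and 1.26 at 10 h and 1.198 and 1.19 at imminent division (FDR 0.116, unadjusted p 0.0337). In that contrast 9.05% of all bins were higher and 14% lower, at pre-S 2.78% and 23%, between 3 h and 10 h 1.12% and 2.38%, and between the groups at 33 h 16.2% and 2.23%.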

How the data were processed

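Each deposited matrix gives, for 1 library, the unscaled counts of read pairs joining any pair of 50 kb bins. Upstream, the authors aligned reads to mm10 with diffHic (cutadapt and bowtie2), marked duplicates and removed artefact pairs. The matrices name no coordinates, so 53357 bins were rebuilt from MboI fragments of GRCm38, the assembly of mm10, and 756 of 48088 autosomal bins with over 10% undetermined bases or extreme coverage were left out. Genes came from GENCODE and promoter sequences from RefSeq.

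DIs were tested with edgeR 4.0.16 (R 4.3.3; quasi-likelihood, 1 layout of 4 groups, loess offsets, FDR over all 1458577 pairs over 4-fold the interchromosomal background), so changes are relative to pairs of like abundance. Promoter bins (at least 200 counts, loess offsets) and boundaries (fold over 1.1) used edgeR, compartments limma 3.58.1. The scripts were tested on simulated data. Alternatives were TMM factors, bin coverage, DESeq2 1.42.0, other filters, flanks and scalings, a replicate block and leaving out each library.

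All 10 members are named. Of the called pairs of each locus and contrast the 3 with the smallest p per direction are named, or the 1 with the smallest p where none was called, and at most 2 bins per list, contrast and direction. The remaining class II pairs, the pairs with the K part, the block values and the boundary regions were picked for description after their values were seen. Members and lists were chosen with earlier results of these data known.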

Additional observations from a re-analysis of the deposited data

Results flagged for a closer look

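The promoter interactivity of H2-Eb1 was called different between the groups at 33 h by the test of the difference itself, a call that hangs on the tool and on single libraries. It was 3.66 and 3.59 log2 CPM with division imminent and 3.49 and 3.50 in pre-S cells, higher at imminent division by 0.13 on the log2 scale (edgeR, SE 0.042, FDR 0.0316), with no overlap between the libraries, against a background of 7.86% of bins higher. The call was lost with DESeq2 (FDR 0.0605), without the first imminent division library (FDR 0.18) and without either pre-S library (FDR 0.16 and 0.139). The bin also holds H2-Eb2, and reporter strain and gate differ between the groups and cannot be told apart from them.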

How the results depend on the processing

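Of the called bin pairs chosen by the naming rule and the called promoter bins of the members, none turned its sign under the alternatives run; the other called pairs and the boundary regions were followed as counts only. Promoter interactivity changes near 0 that were not called, between 3 h and 10 h and between the groups at 33 h, turned sign under some. Counts of weaker pairs at the members were 46 and 29 (imminent division and pre-S against 10 h) with TMM factors, 40 and 26 with bin coverage, 27 and 16 with DESeq2 and 27 and 14 with the filter at 2-fold background, and 10 to 38 and 5 to 22 with 1 library left out. Between the groups at 33 h bin coverage gave 4 pairs, TMM 2 and leaving out a library 0 to 1. Promoter bins called there were 3 with no interaction filter, 0 with DESeq2 and 0 to 1 with a library left out. Without a fold threshold 3, 39, 18 and 19 boundary regions were called in the 4 contrasts (10 h against 3 h, imminent division and pre-S against 10 h, and imminent division against pre-S). Flanks of 500 kb gave 0 at pre-S. Leaving out a library gave 1 (without the first 10 h library) to 4 at pre-S, and 4 (without the first imminent division library; 5 without the second pre-S library) to 10 between the groups at 33 h. Compartment calls were 1 with quantile scaling at imminent division, 1 between the groups at 33 h, and 0 to 1 with a library left out (1 between 3 h and 10 h without the second 3 h library, and 1 at imminent division without either 3 h library). With bin coverage divided out the block differences from 10 h to imminent division were −0.61 within class II, −0.43 with the K part and −0.93 with the D part and passed the test. With a library left out the 6 blocks gave −0.59 to −0.56 within class II, −0.49 to −0.44 with the K part, −0.42 to −0.34 with class III, −0.92 to −0.87 with the D part, −0.35 to −0.27 for Ciita and −0.42 to −0.30 for Cd74. The cause of these shifts was not tested.

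Deviations of same-numbered libraries correlated at −0.15 to 0.04, so the counts showed no pairing by replicate number. This cannot tell whether same-numbered libraries shared mice or cultures. With the replicate block, 30 and 18 pairs were weaker at imminent division and pre-S, and the counts of promoter, boundary and compartment calls stayed at their values. With 2 libraries a group, some calls hang on single libraries, among them all pairs called at Ciita and Cd74, and bins of 50 kb do not separate genes that share a bin.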

Other observations

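Contacts between the loci, which lie on different chromosomes, were counted over windows of 1 Mb on each side and divided by the mean interchromosomal count of the library. Class II with Cd74 stood at 2.70 and 2.54 times the mean at 3 h, 2.26 and 2.36 at 10 h, then 1.74 and 2.00 with division imminent and 1.60 and 1.82 in pre-S cells. All libraries at 33 h were below all earlier ones, on 83 to 215 read pairs per library. Ciita with class II stood at 1.97 and 2.17 at 3 h, 1.54 and 1.62 at 10 h, then 1.503 and 1.73 with division imminent and 1.51 and 1.72 in pre-S cells, so that the 3 h libraries were above all others. Ciita with Cd74 stood at 2.51 and 2.86, 3.16 and 2.80, 2.56 and 2.70, and 2.21 and 2.47 in that order, so that both pre-S libraries were below all others and the 10 h libraries above those of imminent division, while the 3 h libraries overlapped both. These values are a description, were not tested and were not set against windows of like compartment.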
